A study of Mus musculus with 8 samples.

Results

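The C/EBP transcription factor family was followed across 8 Affymetrix expression arrays of mouse acute myeloid leukaemia (AML) cells. Its 5 listed genes are Cebpa, Cebpb, Cebpd, Cebpe and Cebpg. They were found by symbol among probe sets whose platform annotation gives exactly 1 gene, and the probe set of highest mean signal stood for each gene. Of the 17097 genes with such a probe set, 4 belonged to the family, with 8 of the 28898 single-gene probe sets between them. Cebpe had 0 such probe sets and was not analysed here. All 4 measured members were among the 12250 genes tested.

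The comparison set 4 arrays of each group side by side. The arrays labelled Trib1 hi hold RNA of AML cells expressing Hoxa9 and Trib1, and those labelled Trib1 null hold RNA of AML cells expressing Hoxa9 alone. In both groups the leukaemia developed in Trib1 knock-out animals (both copies deleted), and the cells were cultured in IMDM with 10% serum and 5 ng/ml IL-3, and received no treatment. The labels describe each group as a cell line and leave unsaid whether its arrays are separate cultures or animals. The p-values then cover only how far these samples differ from one another, a spread that can be technical. A difference between the cell lines and an effect of Trib1 cannot be told apart.

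C/EBP proteins are basic leucine zipper (bZIP) factors that bind DNA as dimers with each other or with related bZIP proteins. In the myeloid lineage, C/EBP alpha drives the step from progenitor to granulocyte precursor, C/EBP epsilon the later granule stages, and C/EBP beta and C/EBP delta act in macrophages, inflammation and emergency granulopoiesis. C/EBP gamma lacks a transactivation domain and works through its partners, among them the stress factor ATF4. Trib1, a pseudokinase, brings C/EBP alpha protein to the ubiquitin ligase COP1 for degradation, a step after transcription that arrays of RNA do not read.

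Promoters of 3 members are held in the RefSeq promoter table of the mouse build GRCm38.p6, and all 3 are shown. It holds none for Cebpd, which fell, or for Cebpe. Each run is the 250 bases before the annotated start of the gene, 5′ to 3′ along the gene: Cebpa (chr7:35119043-35119292, plus strand), Cebpb (chr2:167688665-167688914, plus strand) and Cebpg (chr7:35056567-35056816, minus strand). Capitals mark every match, on either strand, to 6 motifs. The CCAAT box was searched as CCAAT. The core of a C/EBP dimer site was searched as TTGCNNAA. The composite core that C/EBP and ATF proteins share was searched as TGATGNAA. The short site of CREB and ATF proteins was searched as TGACG. The GC box of SP1 was searched as GGGCGG, and the TATA box as TATAAA.
Cebpa: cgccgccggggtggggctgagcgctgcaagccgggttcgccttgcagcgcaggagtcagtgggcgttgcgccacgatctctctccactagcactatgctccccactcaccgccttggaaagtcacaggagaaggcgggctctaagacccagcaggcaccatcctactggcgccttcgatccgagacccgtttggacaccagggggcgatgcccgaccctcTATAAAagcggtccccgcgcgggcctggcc
Cebpb: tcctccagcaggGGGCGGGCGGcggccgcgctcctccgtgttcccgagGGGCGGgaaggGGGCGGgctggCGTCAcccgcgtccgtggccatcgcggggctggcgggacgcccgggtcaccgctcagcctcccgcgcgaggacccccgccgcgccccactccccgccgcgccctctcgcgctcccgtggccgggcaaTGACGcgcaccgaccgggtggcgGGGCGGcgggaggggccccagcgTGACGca
Cebpg: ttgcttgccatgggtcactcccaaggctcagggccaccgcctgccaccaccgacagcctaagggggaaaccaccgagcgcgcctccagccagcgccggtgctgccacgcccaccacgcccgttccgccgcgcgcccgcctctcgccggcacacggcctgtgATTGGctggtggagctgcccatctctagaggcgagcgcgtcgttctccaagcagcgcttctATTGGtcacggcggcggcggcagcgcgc

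The 3 promoters shared none of these motifs. Cebpa held 1 TATA box, from 30 to 25 bases before the start, and 12.4% of the 32851 windows of equal length in the table held that motif. Cebpb held 5 GC boxes, of which 2 overlapped each other, against 32.7% of windows with a GC box, and 3 TGACG sites, against 17.8%. Cebpg held 2 CCAAT boxes on the strand opposite the printed run, where they appear as ATTGG, against 33.8%. Neither C/EBP core was found in these windows, while 9.56% of all windows held the dimer core and 3.45% the composite core. GC content was 66.4% for Cebpa, 81.6% for Cebpb and 70.8% for Cebpg. A match is a run of letters, not a bound site, and no match says only that these letters are not in the window.

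The arrays differed most at low signal. The median signal ran from 3.71 to 68.3 and was highest on Trib1 hi 3, whereas the 90th percentile ran from 1808 to 1985. The introduced gene read against its label: Trib1 signals ran from 5.92 to 122 in the Trib1 hi set and from 206 to 304 in the Trib1 null set (limma, adjusted p = 0.0498), and missed the threshold under 14 of 22 alternatives. All its values lay below 500, and the sources used here do not give where its probes lie relative to the deleted or introduced part, so they do not test the label. Hoxa9, which both groups are said to express, read 107 ± 189 against 1024 ± 43.5 (SD, n = 4), at least 2.05-fold lower. Where its probes lie relative to the expressed sequence is not given either, so this reading does not test that description. Groups are therefore named by their labels, and every direction is that of the labels. Folds were taken after setting signals below 500 to 500, and "at least" marks a fold with a group partly or wholly below that limit.

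Cebpa, Cebpb and Cebpg rose in the arrays labelled Trib1 hi, and Cebpd fell. All 4 measured members passed the threshold of 0.05 for the adjusted p. In the same fit 11.1% of all genes tested were called higher and 19.7% lower, 30.8% in either direction. Groups without overlap were common too: 13.5% of all genes tested lay higher and 15.8% lower without overlap. Among the 4465 genes with a signal over 500 on all 8 arrays, as these members have, 25.9% were called higher and 25.8% lower. With 51.7% called in either direction, a call as such was common at this brightness. On the probe sets used, differences as large as those of Cebpa, Cebpd and Cebpg were less common, that of Cebpb less so. Of those 4465 genes, 1.01% rose further than Cebpg, 4.61% further than Cebpa and 16.6% further than Cebpb, and 1.72% fell further than Cebpd. The median log2 difference over all genes tested was 0.04. Scaling moved the split of the calls: 1363 genes were higher and 2409 lower as deposited, against 3357 and 3352 after quantile normalization.

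Cebpa encodes C/EBP alpha, the factor without which granulocytes do not form and which is mutated in some human AML. Arrays 1 to 4 labelled Trib1 hi gave signals of 8034, 8018, 5374 and 7738, and Trib1 null 1 to 4 gave 3996, 4148, 3978 and 3884. The groups did not overlap: the lowest array labelled Trib1 hi, number 3, lay 1226 signal units above the highest array labelled Trib1 null. Group means were 7291 ± 1285 and 4002 ± 109 (SD, n = 4 each), a 1.80-fold rise, or 1.98-fold without Trib1 hi 3. The fitted log2 difference was 0.85 with a standard error of 0.11 (limma, adjusted p = 1.62e-07).

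Cebpb encodes C/EBP beta, which can take over granulocyte production under inflammatory demand and serves macrophage genes. On its brightest probe set Trib1 hi 1 to 4 gave 14558, 15110.2, 10488 and 14045, and Trib1 null 1 to 4 gave 9666, 10468, 9981 and 9556. The groups were apart by only 20.5 signal units, with Trib1 hi 3 again the lowest of its group. Means were 13550.3 ± 2087 and 9918 ± 409 (SD, n = 4 each), a 1.35-fold rise with a log2 difference of 0.44 and a standard error of 0.12 (limma, adjusted p = 0.00635).

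A second Cebpb probe set gave a wider gap. Its signals were 4572, 4559, 3650.4 and 4682 in the Trib1 hi set against 3110.4, 3162, 3037 and 2863 in the Trib1 null set. Its fold was 1.43 and its adjusted p over all single-gene probe sets 0.000217 (limma). The third Cebpb probe set was dim, at 3.63 to 136 against 2.98 to 45.2, and overlapped between the groups. The Cebpb call was the least firm of the 4: the adjusted p was 0.058 without a shared variance, 0.0802 without a mean-variance trend and 0.431 when the dim probe set entered a mean of all 3.

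Cebpg encodes C/EBP gamma, the small partner protein of the family, and showed the largest rise of the 4 members on the probe sets used. Its brightest probe set gave 5505, 5333, 4123 and 5011 for Trib1 hi 1 to 4. For Trib1 null 1 to 4 it gave 1787, 1776, 1793 and 1802, a spread of only 11.1 (SD) around a mean of 1789. The lowest array labelled Trib1 hi lay 2320.4 signal units above the highest of these. The mean of 4993 ± 615 (SD, n = 4) was 2.77-fold higher, with a log2 difference of 1.47 and a standard error of 0.10 (limma, adjusted p = 4.70e-14).

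The second Cebpg probe set rose less, by 1.87-fold. It read 2456, 2504, 2099 and 1991 against 1330.4, 1192, 1211 and 1088, without overlap (limma, adjusted p over all single-gene probe sets 4.90e-07). Both probe sets therefore gave the same direction and differed in size. The third was dim, with 11.0 to 332 against 5.98 to 103, and a mean of all 3 missed the threshold (limma, adjusted p = 0.261).

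Cebpd encodes C/EBP delta, an early responder to cytokines and STAT3 signalling, and moved the other way. Its only probe set gave 828, 839, 1028 and 1214 for Trib1 hi 1 to 4 and 2117, 2444, 2355 and 2349 for Trib1 null 1 to 4. The groups were apart by 903 signal units, with every Trib1 hi array the lower. Means of 977 ± 183 and 2316 ± 140 (SD, n = 4 each) gave a 2.40-fold fall, or 2.45-fold without Trib1 hi 3. The log2 difference was -1.26 with a standard error of 0.12 (limma, adjusted p = 1.99e-10).

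Some control probe sets also differed between the groups. All 4 probe sets for the control transcript dap with signals over 500 on every array read lower in the Trib1 hi set with no overlap, with log2 differences of -0.50 to -0.68 and group mean signals between 1153 and 2963. The other 11 added-control probe sets over 500 overlapped, with differences from -0.34 to 0.20. Of the dap probe sets under 500 on some array, one differed by -0.84 without overlap and the other by -1.26 with the groups overlapping (179.6 to 638 against 638 to 767), as large a log2 difference as that of Cebpd. A control probe set for the mouse B1 repeat, over 500 on all arrays, differed by -1.58 without overlap (524 to 913 against 1698 to 1912). The part of these shifts in the Cebpd difference was not tested.

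**Figure D1:**
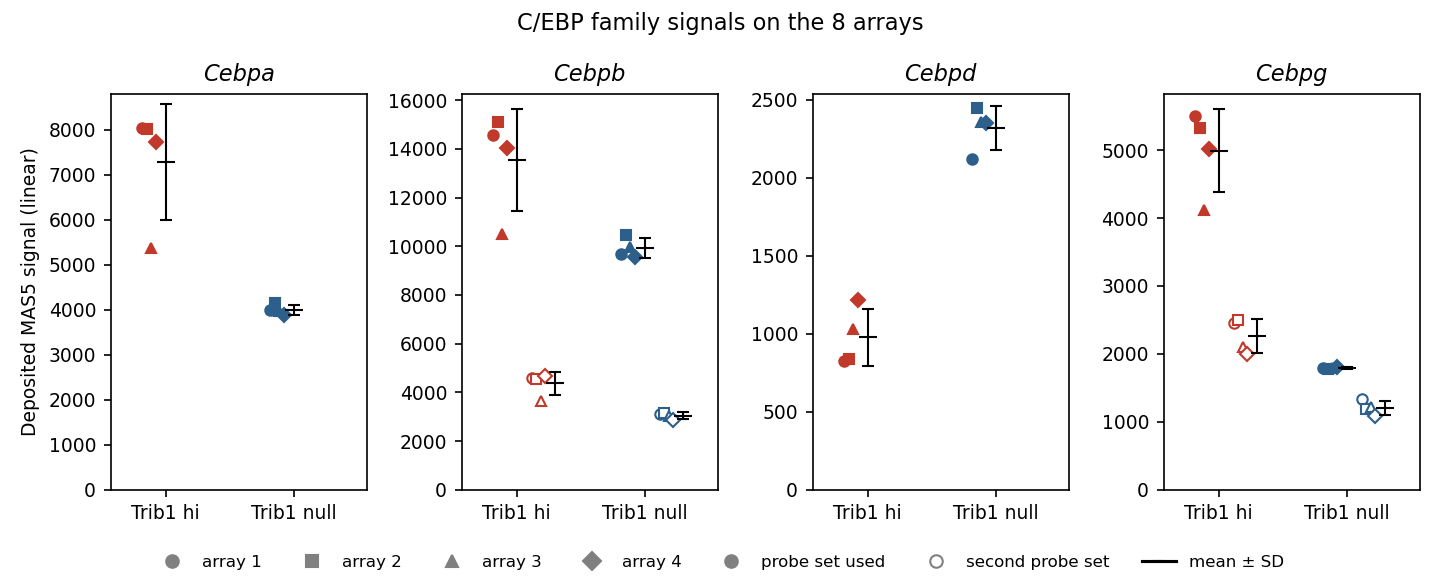
Deposited MAS5 signal (linear axis from 0) of Cebpa, Cebpb, Cebpd and Cebpg on each array, with the mean and SD of 4 arrays beside each group; filled symbols are the probe set used and open symbols a second probe set over 500. Cebpa (5374 to 8034 against 3884 to 4148) and Cebpg lie higher in the arrays labelled Trib1 hi, Cebpd lies lower (828 to 1214 against 2117 to 2444), and the Cebpb groups nearly touch at 10488 and 10468.

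Scaling did not change any direction. After quantile normalization the log2 differences were 0.73 for Cebpa, 0.38 for Cebpb, -1.18 for Cebpd and 1.44 for Cebpg. The plot of differences by setting shows the calls under all alternatives.

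**Figure D2:**
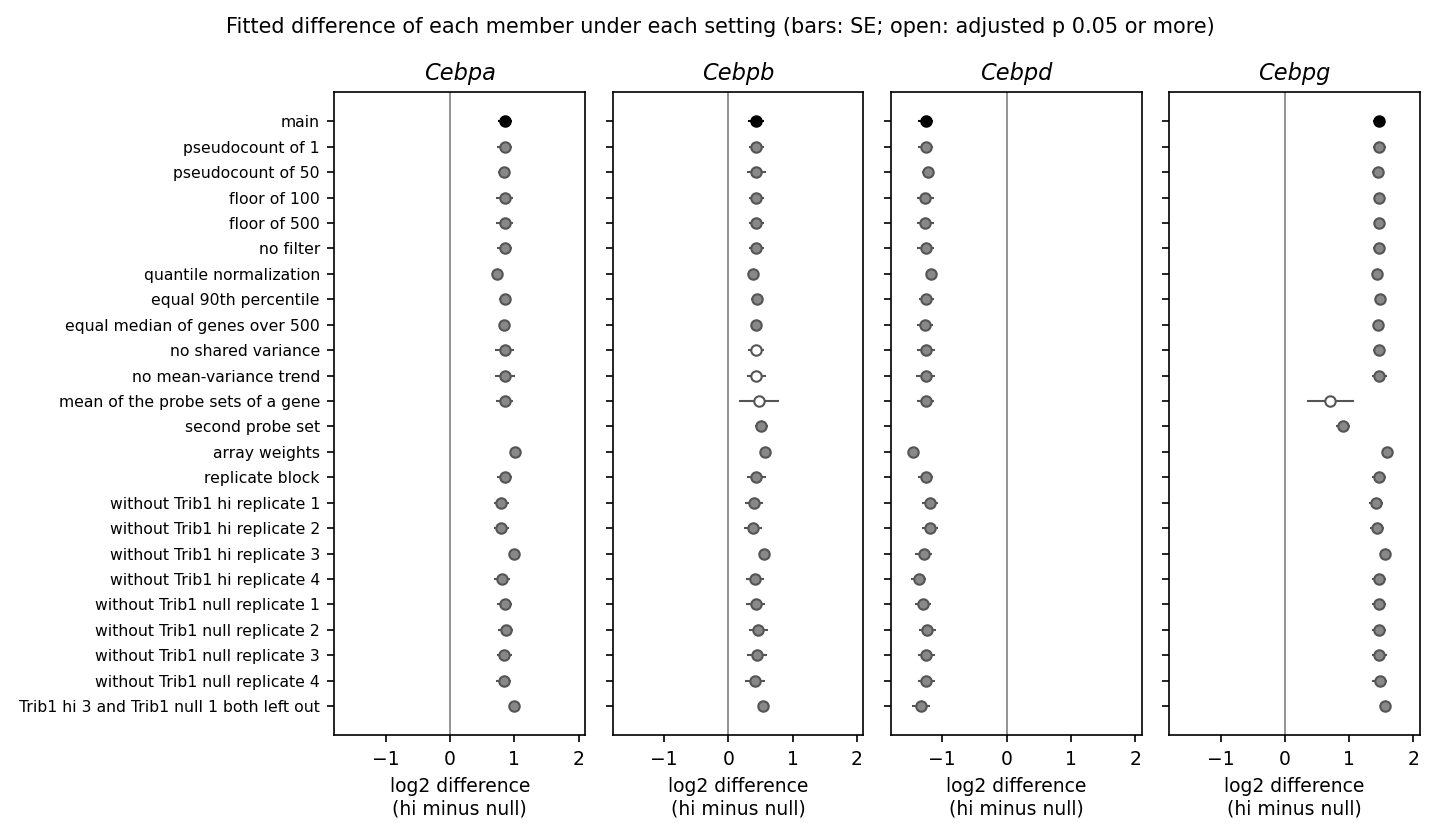
Fitted log2 difference (Trib1 hi minus Trib1 null, horizontal axis) of each member under each processing setting (rows), with bars of 1 standard error and open symbols where the adjusted p is 0.05 or more. Cebpa (0.73 to 1.01) and Cebpd (-1.45 to -1.18) passed under all 22 alternatives, Cebpb missed under 3 of 23 and Cebpg under 1 of 23.

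Likeness to each member was ranked by Pearson r of log2 signal over the 8 arrays, among 4407 of the 4465 genes over 500 on all arrays. The member itself and symbols of RIKEN, Gm or LOC style were left out. The 8 points share the group difference and the low reading of bright genes on Trib1 hi 3, so these values only describe the patterns. The genes most like Cebpa were Mrpl35, a mitochondrial ribosomal protein (r = 0.999), Fmc1 (0.998) and Pbk, a mitotic kinase (0.997). Those most like Cebpb were Slc25a46, Gsto1 and Wbp11 (0.995 to 0.996). Those most like Cebpd were Dcxr, the DNA ligase Lig1 and Srrt (0.994 to 0.996). Those most like Cebpg were Larp4, an RNA-binding protein (r = 0.9996), the cytokine signalling inhibitor Socs2 (0.9995) and Slc7a1, a transporter of cationic amino acids (0.9994). Slc7a1 rose 3.64-fold and Socs2 2.55-fold.

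Cebpa and Cebpg lie near each other on mouse chromosome 7, with 1 other annotated protein-coding gene, Gm45095, between them. The nearest measured genes outside the pair did not share their rise. Pepd, a dipeptidase beside Cebpg, read 734 ± 188 against 913 ± 34.7 (limma, adjusted p = 0.119), and Slc7a10, beside Cebpa, stayed under 90.7 on all arrays. Further along, Gpatch1 read 421 ± 183 against 667 ± 85.2 (limma, adjusted p = 0.0201). Within 4 protein-coding genes on either side of the measured members, 16 genes were tested, the members themselves left out. Of these, 3 were called higher and 1 lower, beside 11.1% higher and 19.7% lower over all genes tested. Named after their values were seen, the higher ones were Adnp near Cebpb, and Ube2v2 and Mzt2 near Cebpd, which itself fell.

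Genes that the family is known to regulate were read in lists, each set against the share of all genes called. In the list of mature granulocyte genes served by C/EBP alpha and C/EBP epsilon, 16 of 24 tested members fell and 0 rose, against 19.7% lower and 11.1% higher over all genes tested, with a median log2 difference of -1.64. Of the 11 members over 500 on all arrays, 9 fell, against 25.8% of all genes that bright. The lower count stayed between 13 and 19 under 22 alternatives, while that over all genes ran from 1274 to 4900. In 4 of the 22 alternatives 1 member rose, among them quantile normalization and the run without Trib1 hi 3. Chil3, a chitinase-like lectin, was at least 3.17-fold lower (6.24 ± 5.93 against 1587 ± 71.2), the secreted glycoprotein Lrg1 at least 9.79-fold, the neutrophil surface protein Cd177 at least 2.38-fold and the NADPH oxidase subunit Cybb at least 2.32-fold. No adjusted p of these 4 exceeded 2.04e-06 (limma).

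Further members of that list were chosen after their values were seen. Ngp, a neutrophil granule protein, read 9013 ± 1402 against 32506 ± 2358, 3.64-fold lower. Mgst1, a microsomal glutathione transferase, read 3494 ± 398 against 17937 ± 1349, 5.15-fold lower. Ceacam1, an adhesion molecule, fell 3.18-fold. Csf3r, the receptor for the granulocyte growth factor G-CSF, fell at least 1.65-fold (415 ± 173 against 889.6 ± 149, limma, adjusted p = 0.00013). Padi4, which converts arginine to citrulline in neutrophil histones, read 5780 ± 773 against 6049 ± 449 (limma, adjusted p = 0.695). The secondary granule genes Ltf and Camp stayed near the bottom of the scale in both groups, with means of 18.2 and 14.6 against 13.9 and 4.77.

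Progenitor and promyelocyte genes bound or regulated by C/EBP alpha went both ways. Of 20 tested, 7 rose, against 11.1% of all genes, and 4 fell, near the 19.7% of all genes. Of the 10 over 500 on all arrays, 3 rose and 1 fell, against 25.9% and 25.8% of all genes that bright. The median log2 difference was 0.13. After quantile normalization 9 rose and 9 fell, when 3357 and 3352 of all 12250 genes did. Mpo, the peroxidase of primary granules, rose at least 10.3-fold (5201 ± 755 against 2.92 ± 0.791) and Cd34, a progenitor surface protein, at least 6.82-fold. Id2, an inhibitor of helix-loop-helix factors, was at least 2.62-fold lower and Prom1, a progenitor membrane protein, at least 1.59-fold lower. No adjusted p of these 4 exceeded 5.11e-05 (limma). Gfi1, a repressor that acts with C/EBP alpha in granulocyte precursors, read 4145 ± 458 against 4430 ± 337 and did not pass (limma, adjusted p = 0.529); it was named after its values were seen.

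In the list of macrophage and inflammatory targets of C/EBP beta and C/EBP delta, 7 of 18 tested genes fell, against 19.7% of all genes. The 2 that rose are the same share as the 11.1% of all genes, and the median log2 difference was -0.13. Of the 6 over 500 on all arrays, 1 rose and 4 fell, against 25.9% and 25.8% of all genes that bright. Cd14, the co-receptor for lipopolysaccharide, fell at least 11.8-fold (578 ± 145 against 6931 ± 528; limma, adjusted p = 2.11e-21). Chosen after their values were seen, Il1rn, the interleukin-1 receptor antagonist, fell 3.67-fold (1441 ± 54.9 against 5282 ± 167) and Csf1, the macrophage growth factor, 2.21-fold. Saa3, Il6 and Ccl4 passed with values below 500 on some or all arrays of both groups: means of 22.1, 155 and 124 against 299, 1.44 and 553. Their calls ended with a floor of 500 (limma, adjusted p of 1, 1 and 0.292). Leaving out any array labelled Trib1 null ended those of Saa3 (adjusted p = 0.0526 to 0.0963) and Il6 (0.0865 to 0.123), so without it 1 gene of the list was higher. Over 22 alternatives the count higher ran from 1 to 5. It was 4 after quantile normalization and 5 with array weights, when 3357 and 2820 of all 12250 genes were higher.

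Of 19 tested targets of C/EBP gamma and ATF4 dimers, 12 rose, 0 fell and 7 did not pass, against 11.1% higher and 19.7% lower over all genes tested. The median log2 difference was 1.23. Of the 9 over 500 on all arrays, 7 rose and 0 fell, against 25.9% and 25.8% of all genes that bright. The count of 12 stayed between 11 and 15 under 22 alternatives, while the count higher over all genes ran from 725 to 3357. After quantile normalization 14 rose, when 3357 of all 12250 genes did. The count of 0 lower became 1 or 2 under 4 of the 22 alternatives, with 2 after quantile normalization. Cth, which makes cysteine, was at least 8.95-fold higher (4499 ± 539 against 1.52 ± 0.161). Trib3, a tribbles pseudokinase induced by stress, was at least 9.10-fold higher, Atf5, a bZIP factor, at least 4.61-fold and Chac1, which degrades glutathione, at least 3.64-fold. No adjusted p of these 4 exceeded 3.45e-12 (limma).

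Several more of these targets were bright in both groups and were named after their values were seen. Slc7a5 and Slc3a2, the chains of a transporter of large neutral amino acids, rose 3.52-fold (8871 ± 1442 against 2491 ± 70.6) and 2.35-fold. Nupr1, a stress-induced nuclear protein, rose 3.26-fold (4691 ± 586 against 1432 ± 28.9). Asns, asparagine synthetase, rose 1.75-fold. The subunits of glutamate-cysteine ligase, which starts glutathione synthesis, differed: Gclc rose 1.99-fold (1496 ± 125 against 750.2 ± 59.0), while Gclm read 6035 ± 835 against 6651 ± 231 (limma, adjusted p = 0.342). The plot of the C/EBP gamma and ATF4 genes shows the groups apart for each gene called higher.

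**Figure D3:**
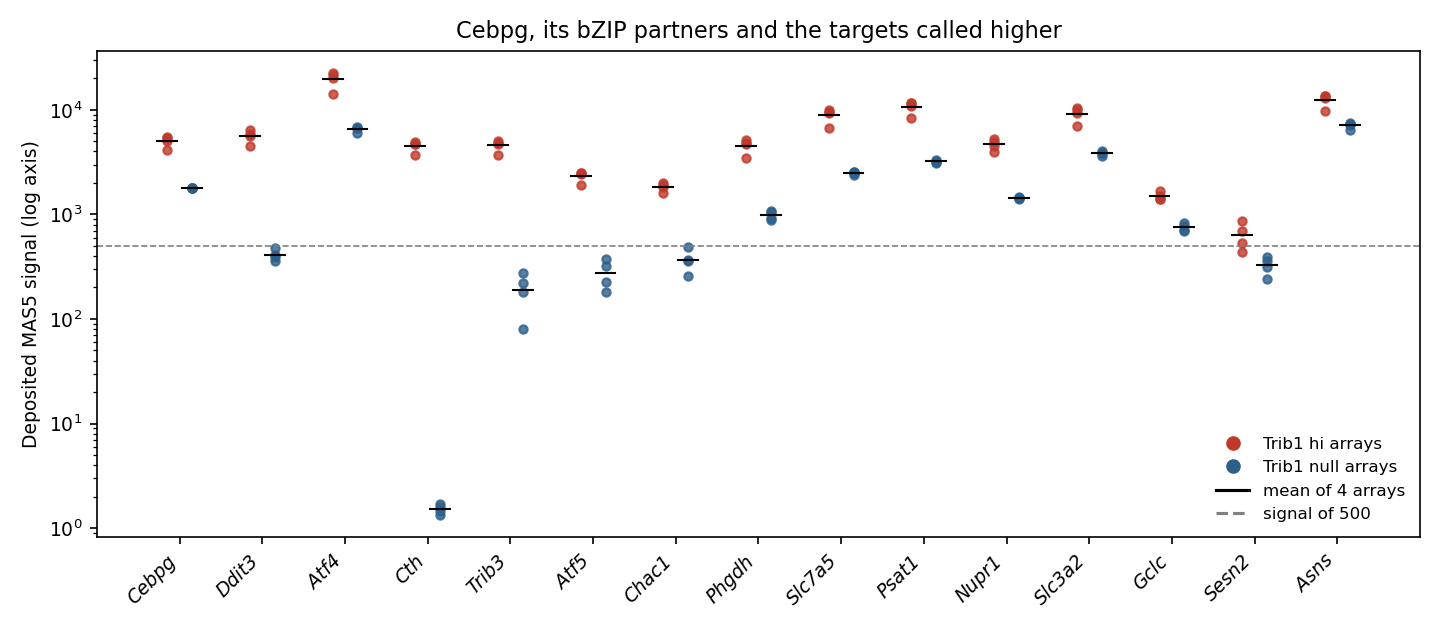
Deposited MAS5 signal on a log axis of Cebpg, of Ddit3 and Atf4, and of the 12 C/EBP gamma and ATF4 targets called higher, with a point per array, a bar at the mean of 4 arrays and a dashed line at 500. The groups do not overlap for any gene shown; Cth, at 1.52 on average in the arrays labelled Trib1 null, is the only one near the bottom of the scale.

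Among other bZIP factors able to pair with C/EBP proteins, 3 of 21 tested rose and 5 fell. Both lay near the shares over all genes of 11.1% and 19.7%, and the median log2 difference was 0.18. Of the 5 over 500 on all arrays, 1 rose and 2 fell, beside 25.9% and 25.8% of all genes that bright. Ddit3, the C/EBP homologous protein CHOP that blocks DNA binding of its C/EBP partners, was at least 11.1-fold higher (5572 ± 791 against 409 ± 51.1; limma, adjusted p = 2.71e-22). Atf4 rose 2.95-fold (19577 ± 3657 against 6547 ± 397; limma, adjusted p = 1.49e-11). Atf5 was the third to rise. Fosl2, a member of the AP-1 family, was at least 1.41-fold lower (limma, adjusted p = 0.00235), a call that ended under 4 of 22 alternatives, with adjusted p from 0.0624 to 0.845. The list counts moved with the processing, to 8 lower without Trib1 hi 3, when 3768 of all 12250 genes were lower. Without a mean-variance trend 1 was lower, against 1274 of all 12250 genes.

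Among genes for turnover of and signalling to C/EBP proteins, 3 of 15 tested rose and 3 fell, beside 11.1% higher and 19.7% lower over all genes, with a median log2 difference of 0.03. Of the 11 over 500 on all arrays, 2 rose and 1 fell, beside 25.9% and 25.8% of all genes that bright. Trib3 rose as above. Cdk4, a cyclin-dependent kinase, rose 1.54-fold (7818 ± 1142 against 5039.9 ± 220.2; limma, adjusted p = 1.87e-05). Map2k1, which encodes the Trib1 partner MEK1, fell 1.31-fold (2433 ± 157 against 3183 ± 158; limma, adjusted p = 0.00103). Without Trib1 hi 3, 6 rose and 3 fell, when 2103 and 3768 of all 12250 genes did.

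Among upstream regulators of C/EBP genes, 3 of 26 tested rose, near the 11.1% of all genes, and 8 fell, against 19.7% of all genes. The median log2 difference was -0.10. Of the 15 over 500 on all arrays, 3 rose and 4 fell, beside 25.9% and 25.8% of all genes that bright. Gata2, a transcription factor of early progenitors, rose 2.41-fold (1841 ± 223 against 761 ± 73.7; limma, adjusted p = 3.94e-10). Notch1 fell 2.22-fold (1120 ± 92.8 against 2476 ± 109; limma, adjusted p = 6.03e-11). Socs3, a feedback inhibitor induced by STAT3, was at least 2.15-fold lower, and lost its call when variances were not shared (limma without eBayes, adjusted p = 0.0659). The Hoxa9 probe set read lower, with the limit given above. Stat3, which acts on Cebpd, fell 1.32-fold, and Runx1, which acts on Cebpa, read 1105 ± 101 against 1069 ± 40.3 (limma, adjusted p = 0.868); both were named after their values were seen. Without Trib1 hi 3, 8 rose and 9 fell, when 2103 and 3768 of all 12250 genes did. After quantile normalization 9 rose and 13 fell, when 3357 and 3352 of all 12250 genes did.

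**Figure D4:**
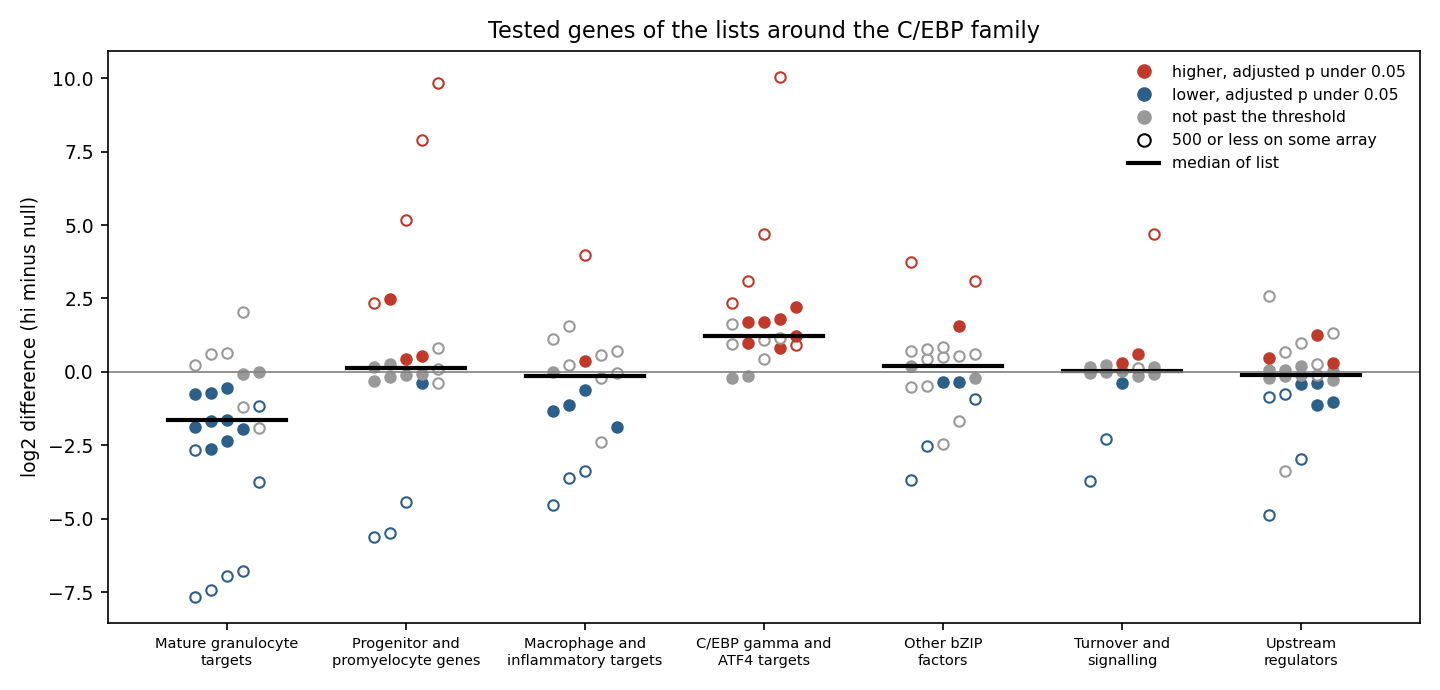
Fitted log2 difference (Trib1 hi minus Trib1 null, vertical axis) of each tested gene in 7 lists around the family; colour gives the call, open symbols are genes at 500 or less on some array, and the black bar is the median of the list. The mature granulocyte list lies lowest (median -1.64) and the C/EBP gamma and ATF4 list highest (median 1.23).

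Markers of myeloid and other cells were read the same way. All 15 myeloid identity genes were tested, of which 1 rose and 6 fell, against 11.1% higher and 19.7% lower over all genes. Of the 11 over 500 on all arrays, 0 rose and 3 fell, against 25.9% and 25.8% of all genes that bright. After quantile normalization 1 rose and 13 fell, when 3357 and 3352 of all 12250 genes did. The integrin Itgam fell 3.08-fold, the lectin Cd33 at least 2.94-fold and Spi1, the factor PU.1, at least 1.61-fold, a call that ended under 3 of 22 alternatives, with adjusted p from 0.0805 to 0.106 (limma). All 11 measured lymphoid markers, Cd3e and Cd3d among them, stayed under 500 on every array, as did 7 of 8 erythroid and megakaryocytic and 9 of 10 stromal markers, Pecam1 being the exception among the latter (1.39-fold lower). Their summed signal was 38.2 to 516 against 37.3 to 249 for lymphoid, 90.7 to 1551 against 172 to 754 for erythroid, and 1650.0 to 1827 against 2142 to 2375 for stromal markers.

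Of 12 measured markers of mast cells, basophils and eosinophils, 8 were tested, of which 2 rose, 1 fell and 5 did not pass. Over all genes tested, 11.1% were higher and 19.7% lower. Without Trib1 hi 3, 4 of these markers rose and 1 fell, when 2103 and 3768 of all 12250 genes did. In all, 8 of the 12 stayed under 500 on every array. Cpa3, a mast cell protease, rose 16.8-fold (23607 ± 4093 against 1385 ± 22.4), the eosinophil lectin Siglecf rose at least 8.04-fold, and the basophil protease Mcpt8 fell 1.74-fold. The summed signal of 24952 to 33735 against 6810 to 7232 was mostly that of Cpa3 in the arrays labelled Trib1 hi. Their part in the differences of the family was not tested. In bulk RNA, a change in the share of cells of a type and a change in RNA per cell cannot be told apart.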

How the data were processed

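Expression was measured on 8 arrays. The authors deposited 1 linear intensity per probe set and array, computed with MAS5 per the submitters' processing notes; the sources used here do not give the version, scaling target or detection calls. Groups came from sample titles.

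Values were tested as log2(intensity + 2.71), 2.71 being the 25th percentile of all values. Genes whose average log2 value exceeded 3.01 (40th percentile over probe sets) were fitted with limma 3.58.1 in R 4.3.3 (lmFit, eBayes with a mean-variance trend), two-sided, with Benjamini-Hochberg adjustment over 12250 genes and a threshold of 0.05. Every adjusted p comes from this model unless another is named. A fold on this scale understates dim genes. Array number limits precision.

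The members and the 12 gene lists were chosen with earlier results of these data known. The text names all members, up to 4 genes per list by largest difference among calls without overlap (or 2 by signal), Trib1, Hoxa9 and Ddit3, and the 3 genes most like each member; others are marked. Lists are described by counts and medians, without a list test. Some genes stand in more than 1 list.

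Promoter sequences came from RefSeq (GRCm38.p6). Alternatives were pseudocount, floor, filter, scaling, variance, probe sets, array weights, replicate block and each array left out. Deviations of the same-numbered arrays of both groups gave mixed correlations, from -0.505 for number 1 to 0.505 for number 2.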

Additional observations from a re-analysis of the deposited data

Results flagged for a closer look

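In 27 of 114 sets of 4 values (57 probe sets in both groups), the array at one end stood apart, its gap to the nearest array divided by the whole range passing Dixon's critical value; chance gives about 1 in 20. Trib1 hi 3 was that array in 20 of them.

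Among family probe sets, Trib1 hi 3 was the low array for Cebpa (0.889) and the second Cebpb probe set (0.88), and the high array for the dim probe sets of Cebpb (0.991) and Cebpg (0.998). Trib1 null 1 was the high array for the dim Cebpb probe set (0.959). Without Trib1 hi 3, the log2 differences were 0.99 for Cebpa, 0.56 for Cebpb, -1.29 for Cebpd and 1.56 for Cebpg, all past the threshold.

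Trib1 hi 3 was also the low array for the bright genes Atf5 (0.867), Cdk4 (0.85), Map2k1 (0.927), Pbk (0.912) and Gsto1 (0.863). It was the high array for genes dim in that group: Chil3 (0.96), Lrg1 (0.989), Cd177 (0.983), Cybb (0.979), Id2 (0.992), Prom1 (0.994), Saa3 (0.99), Trib1 (0.99), Hoxa9 (0.989), Cd3e (0.983) and Cd3d (0.993). Trib1 null 1 was high for Cd177 (0.856), Cd34 (0.988), Cd3e (0.952) and Cd3d (0.971). Trib1 hi 4 was low for Itgam (0.972), and Trib1 null 2 was high for Slc25a46 (0.845).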

How the results depend on the processing

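Directions of all 4 members held under every alternative run. Cebpb missed the threshold at a log2 difference of 0.4368 without a shared variance and without a mean-variance trend, and at 0.4739 with the mean of its probe sets. Cebpg missed it at 0.7054 with the mean of its probe sets, which counts a dim probe set equally.

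The count of genes higher was 1363, against 3357 after quantile normalization, 725 with the mean of probe sets, 2820 with array weights and 2698 without both Trib1 hi 3 and Trib1 null 1, a setting chosen after seeing the data. The count lower was 2409, against 1595 with a floor of 500, 1379 without a shared variance, 1274 without a trend, 1317 with the mean of probe sets, 4900 with array weights and 3903 without both arrays. Leaving out 1 array gave 1153 to 2103 higher and 1964 to 3768 lower, both highest values being without Trib1 hi 3, which moved the median log2 difference of all genes from 0.04 to -0.32. After quantile normalization Hba-a1 (1.127) and Itga2b (1.209) turned higher. With the mean of probe sets Larp4 (-0.1946) and Wbp11 (-0.5586) turned lower, short of the threshold. Causes were not tested.

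With the replicate number as a block, the log2 differences were 0.85 for Cebpa, 0.44 for Cebpb, -1.26 for Cebpd and 1.47 for Cebpg, all called, and 1284 genes were higher and 2346 lower. The numbers were not taken as pairs in the main fit. Signals below 500 are the least precise.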
